A study of Homo sapiens with 18 samples.

Results

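The genes described here encode 10 surface or secreted proteins through which a leukaemic cell meets phagocytes and lymphocytes: CD47, SIRPA, CD274, PDCD1LG2, CD80, CD86, HAVCR2, LGALS9, CD200 and CD38. The rule that selects them lists their names and holds no threshold on a value, though it was set with earlier results of these data known. Each was 1 of the 40184 Ensembl gene IDs in the deposited expression table. RNA-seq was done on 3 established human acute myeloid leukaemia lines, with 3 samples in each of 6 groups and 18 samples in all. FLT3 has an internal tandem duplication (FLT3-ITD) in Molm-14 and MV4-11, and SKNO-1 has the KIT mutation N822K. Each line received either no drug, with the solvent DMSO alone, or 500 nM RMC-4550 for 24 h. RMC-4550 is an allosteric inhibitor of SHP2, the phosphatase encoded by PTPN11, which passes signals from receptor tyrosine kinases to RAS. Only SKNO-1 was kept in GM-CSF, at 10 ng/mL in both of its groups, so the line cannot be told apart from its growth factor. Each group is a single line in culture, and the labels call its samples biological replicates without saying how they were separated. The p-values thus measure the spread between these samples, which may be technical. That spread was pooled over all 6 groups, so a p-value for 1 line also rests on the libraries of the other lines.

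CD47 on a cell binds SIRPα on macrophages and dendritic cells, and SIRPα then recruits the phosphatases SHP1 and SHP2 and restrains engulfment. PD-L1 (CD274) and PD-L2 (PDCD1LG2) engage PD-1 on T cells and dampen their activation, while CD80 and CD86 supply the CD28 signal that T cells need and are also bound by the inhibitory receptor CTLA-4. TIM-3 (HAVCR2) and its ligand galectin-9 (LGALS9) are known on acute myeloid leukaemia cells, CD200 restrains myeloid cells through its receptor, and CD38 is an ectoenzyme that consumes NAD and is a target of therapeutic antibodies.

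Recovered read totals ran from 17434810 to 19959917 per library. Levels are in CPM, the reads scaled to a common library size, and CPM per kilobase of exon where genes are compared with each other. All 8 myeloid markers (among them PTPRC, CD33 and MPO) had more than 3 reads in every library, while the 4 dendritic cell markers summed to 0.753 CPM or less and the 5 T cell markers to 13.8 CPM or less. Those of B cells summed to between 8.09 and 21.5 CPM and those of NK cells to between 26.1 and 56.5 CPM, beside 1308 to 1790 CPM for the myeloid list. Several of these sums differed between treated and untreated libraries without overlap. In Molm-14 the T cell list summed to between 11.4 and 13.8 CPM with DMSO and between 2.38 and 3.72 CPM with RMC-4550, with CD3D and CD3E at 0 reads in both groups. The B cell list was also lower, at 16.3 to 19.2 CPM against 8.09 to 11.0 CPM. The NK list was higher, at 36.1 to 39.8 CPM against 51.2 to 56.5 CPM, and so was the myeloid list, at 1308 to 1333 CPM against 1655 to 1750 CPM. In MV4-11 the T cell list was at 3.99 to 6.46 CPM with DMSO and 1.11 to 1.27 CPM with RMC-4550, and the myeloid list at 1314 to 1392 CPM and 1416 to 1500.5 CPM. In SKNO-1 the NK list was at 26.1 to 29.6 CPM and 33.5 to 44.5 CPM, and the myeloid list at 1445 to 1487 CPM and 1657 to 1790 CPM. Their part in the results was not tested. RUNX1T1, the fusion partner in SKNO-1, stood at 13.8 ± 0.608 CPM over the untreated SKNO-1 libraries (SD, n = 3) and had at most 1 read in any library of the other lines. With DMSO, the mean level in MV4-11 lay between those of Molm-14 and SKNO-1 for 52.9% of 15562 genes. Of 9261 genes at 10 CPM or more in untreated Molm-14, 0 had less than 1% of their Molm-14 level in MV4-11, while 61 genes with at least 10 CPM in MV4-11 had less than 1% of it in Molm-14. For SKNO-1 the corresponding numbers were 13 of 9244 genes, and 29 the other way. Whether the MV4-11 libraries hold RNA of another line was not tested, and each MV4-11 value is that of the libraries so labelled. Mitochondrial genes took more than 10% of the reads in 4 libraries, namely 15.0% in Molm-14 with RMC-4550 replicate 2, 12.7% and 14.6% in MV4-11 with DMSO replicates 1 and 3, and 10.5% in MV4-11 with RMC-4550 replicate 1. The other 14 libraries lay between 5.07% and 7.02%. Pairs of replicates with 1 library on each side of 10% differed by a chi-square of 39.7 to 149.7 per gene, and all other replicate pairs by 1.67 to 9.57. The results on members and the list counts that change when these 4 high-mitochondrial libraries are left out are given both ways. Leaving them out keeps 1 untreated MV4-11 library, replicate 2, so every MV4-11 value and count in that setting rests on it.

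With RMC-4550, 4 of the 6 members that could be tested changed in Molm-14, where limma called 46.7% of 13971 genes. CD86 and HAVCR2 rose there (21.5% of genes did) and SIRPA and CD38 fell (25.2% did). In MV4-11, CD86, HAVCR2, LGALS9 and CD38 rose, which is 4 of 6 tested members, where 13.9% of 14739 genes were called and 5.85% were called higher. In SKNO-1, CD86 and HAVCR2 rose, which is 2 of 7 tested members, where 27.1% of 14670 genes were called and 10.8% were called higher. In bulk RNA, fewer cells with a transcript and less of it per cell cannot be told apart. CD86 and HAVCR2 were the members called higher in all 3 lines, a pattern that 3.11% of the 12792 genes tested in every line showed. The median log2 change of the tested members was -0.012 for Molm-14, 0.63 for MV4-11 and 0.11 for SKNO-1. Over all genes tested it was -0.058, -0.010 and -0.047. CD274, PDCD1LG2 and CD80 were too low to test in any line, and CD200 could be tested only in SKNO-1, so the tested members are those with a measurable level and not the whole set. Without the 4 libraries over 10% mitochondrial reads, the number called stayed at 4 in Molm-14, with 2 higher and 2 lower. In MV4-11 this left 1 untreated library, and the CD47 change was -0.23 there. In SKNO-1 the number called was 4, with CD38 now higher and SIRPA now lower. Over all genes the number called rose as well in both lines, in SKNO-1 from 3969 to 7818. The list counts given below without these libraries stand beside the same rise.

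**Figure D1:**
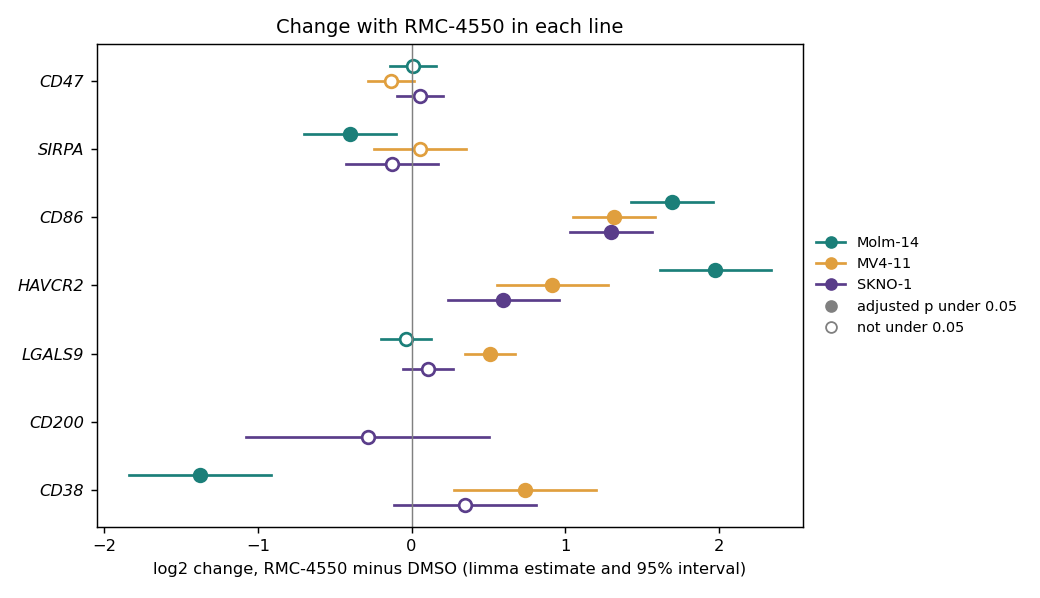
Log2 change with RMC-4550 against DMSO for each tested member in each line, with bars for the 95% interval of the limma fit and filled points for changes called at an adjusted p under 0.05. CD86 lies furthest to the right in MV4-11 and SKNO-1 and HAVCR2 in Molm-14, while CD38 lies at -1.38 in Molm-14 and at 0.74 in MV4-11.

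Without drug SIRPA, LGALS9 and CD47 were the highest members in each line. They stood well above the rest in Molm-14 and MV4-11, while CD38 came close to CD47 in SKNO-1. The order of the lower members depended on the line. SIRPA led in Molm-14 at 26.1 ± 0.441 CPM per kilobase (SD, n = 3), followed by LGALS9 at 17.96 ± 0.664 and CD47 at 14.6 ± 0.115, and the next member, CD86, was at 2.08 ± 0.256. In MV4-11, LGALS9 at 26.7 ± 0.971 and SIRPA at 25.2 ± 5.40 CPM per kilobase overlapped in their libraries, and CD47 followed at 15.3 ± 1.09. In SKNO-1 the order was LGALS9 at 26.6 ± 0.963, SIRPA at 25.2 ± 0.127, CD47 at 11.95 ± 0.112 and then CD38 at 11.2 ± 0.579 CPM per kilobase. CD38 thus stood in the fifth place in Molm-14 at 1.05 ± 0.081 CPM per kilobase, and in the fourth in MV4-11 at 2.65 ± 0.603, where its libraries overlapped those of CD86 at 2.02 ± 0.177. At the lower end PDCD1LG2, CD274 and CD80 stayed under 0.22 CPM per kilobase in every DMSO library, with overlapping libraries between neighbours except for PDCD1LG2 over CD274 in MV4-11.

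**Figure D2:**
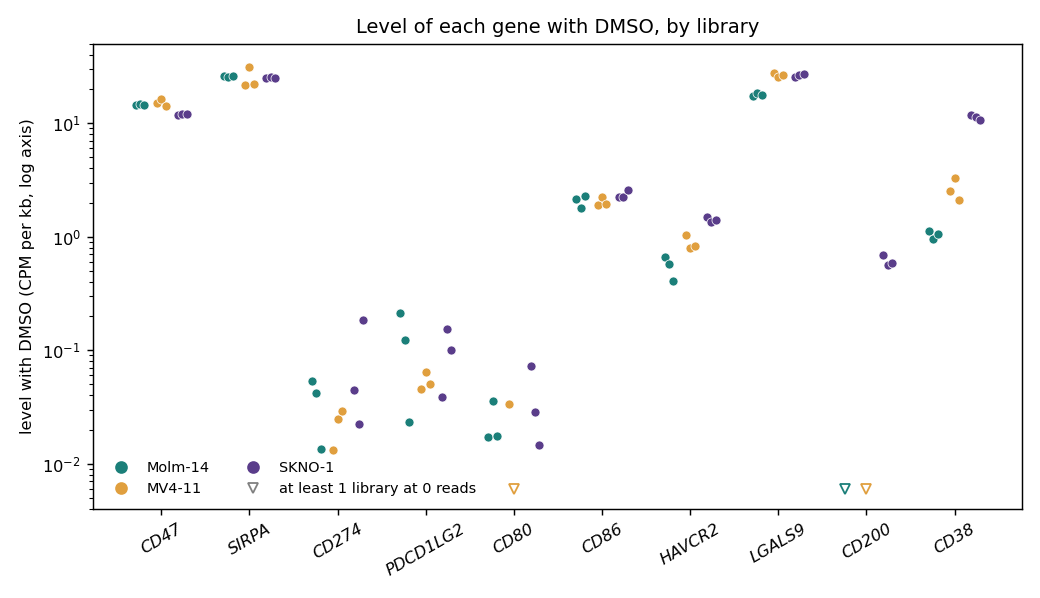
Level of each member with DMSO in CPM per kilobase of exon, on a log axis, with 1 point per library, the lines in separate colours, and an open triangle at the foot where at least 1 library of a line had 0 reads. SIRPA, LGALS9 and CD47 lie at the top in all 3 lines, and CD38 is the member whose position differs most between lines among those seen in every library.

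Between lines without drug, 3 members differed between Molm-14 and MV4-11 in a comparison where 54.2% of 14472 genes were called: HAVCR2, LGALS9 and CD38, all lower in Molm-14. Between SKNO-1 and Molm-14 there were 5 of 7, namely CD47, HAVCR2, LGALS9, CD200 and CD38, where 65.3% of 14793 genes were called. Between SKNO-1 and MV4-11 there were 4 of 7, namely CD47, HAVCR2, CD200 and CD38, where 42.5% of 14748 genes were called. CD200 passed the filter of both SKNO-1 comparisons through SKNO-1 alone, with 0 reads in the other lines. Its calls there were fixed in advance by the filter, and the counts of 5 and 4 include it. The comparisons of level and of response share the untreated libraries.

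CD47 (ENSG00000196776, chr3:108043094-108091862 in GRCh38, minus strand), the ligand of SIRPα, was at 120.2, 120.6 and 119 CPM in the Molm-14 libraries with DMSO and at 127, 121 and 115 CPM with RMC-4550. The corresponding values were 125, 135 and 117 CPM against 112, 122 and 108 CPM in MV4-11, and 97.3, 99.2 and 98.4 CPM against 105, 99.8 and 101 CPM in SKNO-1. The treated and untreated libraries overlapped in Molm-14 and MV4-11. In SKNO-1 all treated libraries lay above the untreated ones by a small margin, in a line where 62.0% of tested genes did not overlap. No change was called: the log2 change was 0.012 (95% interval -0.14 to 0.16) in Molm-14, -0.14 (-0.29 to 0.014) in MV4-11 and 0.055 (-0.095 to 0.20) in SKNO-1. In MV4-11 the change was -0.23 without the libraries over 10% mitochondrial reads, which left 1 untreated and 2 treated libraries. None of the differences in response between lines was called for CD47, with adjusted p from 0.28 to 0.82 in limma. Without drug, CD47 was lower in SKNO-1 than in Molm-14 by 0.29 on the log2 scale (SE 0.071, limma adjusted p = 0.002) and lower than in MV4-11 by 0.35 (SE 0.071, adjusted p = 0.00099). The first of these was -0.040 and not called when libraries were scaled by their read totals alone.

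SIRPA (ENSG00000198053, chr20:1894167-1940592, plus strand) was at 133, 129.6 and 134 CPM in Molm-14 with DMSO and at 112, 81.9 and 109 CPM with RMC-4550. All 3 treated libraries lay below the untreated ones, as was so in one or the other direction for 60.0% of the genes tested in this line, and replicate 2, the library with 15.0% mitochondrial reads, was the lowest. SIRPA fell by 0.40 on the log2 scale (SE 0.14, limma adjusted p = 0.029), and by 0.26 and not called (adjusted p = 0.15) when that library alone was left out. The call was also lost without any 1 of the 3 untreated Molm-14 libraries, with adjusted p from 0.058 to 0.072, while with all 4 high-mitochondrial libraries left out the smaller change was called. In MV4-11 the libraries overlapped, at 111, 159 and 113 CPM with DMSO and 109.7, 139 and 147 CPM with RMC-4550, and the change was 0.054 (95% interval -0.25 to 0.35). Its sign turned to -0.16 without the libraries over 10% mitochondrial reads. In SKNO-1 the treated libraries, at 118, 114 and 119 CPM, lay below the untreated ones at 128, 129 and 127 CPM, as 62.0% of tested genes did in one or the other direction. The SKNO-1 change of -0.13 (SE 0.14) missed the call (limma adjusted p = 0.55), but it was called at the same value without the high-mitochondrial libraries (adjusted p = 0.017). No difference in the SIRPA response between lines was called with all libraries. That of Molm-14 against MV4-11, at -0.45 (limma adjusted p = 0.11), was called without MV4-11 DMSO replicate 2 (-0.62, adjusted p = 0.01) or MV4-11 RMC-4550 replicate 1 (-0.58, adjusted p = 0.038). There was no called difference in its level without drug. Without the high-mitochondrial libraries the level was lower than in MV4-11 in both Molm-14 (-0.27) and SKNO-1 (-0.32). The MV4-11 level was then that of 1 library, replicate 2 at 159 CPM, the highest of the 3.

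Of 15 fixed partners of CD47 and other phagocytosis genes, 10 could be tested in Molm-14, where 3 rose and 3 fell, 11 in MV4-11, where 4 rose and 0 fell, and 12 in SKNO-1, where 3 rose and 2 fell. Over all genes tested, 46.7%, 13.9% and 27.1% were called in one or the other direction in the same order of lines. At an unadjusted p under 0.05 in limma the count of lower genes in MV4-11 was also 0. Their median log2 changes were -0.18, 0.27 and 0.15, beside all-gene medians of -0.058, -0.010 and -0.047. SIRPB2, a relative of SIRPA, rose in all 3 lines, from 3.68 to 7.10 CPM in Molm-14, from 15.5 to 28.1 CPM in MV4-11 and from 19.9 to 38.1 CPM in SKNO-1. SIRPB1, an activating relative, fell in Molm-14 from 19.1 to 13.4 CPM (-0.51 on the log2 scale, SE 0.088, limma adjusted p = 0.00022), and in SKNO-1 from 16.3 to 9.74 CPM (-0.75, SE 0.088, adjusted p = 1.2e-05). Because SIRPA, SIRPB1 and SIRPG have similar sequences and the counting of shared reads is not given in the sources used here, their separate values are uncertain. LILRB1, a receptor for MHC class I that also restrains phagocytes, rose from 22.2 to 33.8 CPM in MV4-11 and from 44.5 to 65.6 CPM in SKNO-1.

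SIGLEC10, the receptor of CD24, rose from 8.82 to 17.0 CPM in SKNO-1. It also rose from 5.83 to 8.36 CPM in MV4-11, where the call was lost without DMSO replicate 1 or RMC-4550 replicate 3. LRP1, which receives the engulfment signal of calreticulin, rose from 7.77 to 11.4 CPM in Molm-14 and from 42.4 to 61.6 CPM in MV4-11, where leaving out any of 4 libraries (DMSO replicates 1 and 3, RMC-4550 replicates 2 and 3) ended the call. CALR, which encodes calreticulin, fell from 993 to 728 CPM in Molm-14, by 0.47 on the log2 scale and by 0.30 without RMC-4550 replicate 2, which was called as well. B2M, the light chain of MHC class I, rose there from 1004 to 1286 CPM. PTPN11, which encodes the drug's target and binds the SIRPα tail, fell from 242 to 125 CPM in Molm-14 and from 130.1 to 83.4 CPM in SKNO-1, the second with a call that was lost without any 1 of the 6 SKNO-1 libraries. QPCTL, the enzyme that modifies CD47 for SIRPα binding, was not called in any line, with log2 changes from -0.18 to -0.0027. Without the 4 high-mitochondrial libraries the list counted 3 higher and 4 lower in Molm-14, 4 and 1 in MV4-11, and 4 and 3 in SKNO-1.

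CD274 and PDCD1LG2 lie close together on chromosome 9 (ENSG00000120217, chr9:5450503-5470566, and ENSG00000197646, chr9:5510570-5571254, both plus strand) and were present at a few reads per library. CD274 had 4, 3 and 1 reads in Molm-14 with DMSO and 4, 0 and 6 with RMC-4550. It had 1, 2 and 2 reads against 4, 12 and 7 in MV4-11, and 4, 2 and 16 against 17, 18 and 18 in SKNO-1. The treated libraries lay above the untreated ones in MV4-11, where 24.6% of tested genes did not overlap in either direction. They did so too in SKNO-1, where 62.0% of tested genes did not overlap, with 17 reads against 16 in the nearest libraries. The groups overlapped in Molm-14. At 1 CPM or less in every library CD274 did not pass the filter and was not tested. As a description added after the values were seen, the summed reads scaled by library size gave a ratio of treated to untreated of 4.32 in MV4-11 (exact 95% interval 1.61 to 14.5), from 23 against 5 reads. In SKNO-1 the ratio was 2.40 (1.44 to 4.15), from 53 against 22 reads of which 16 were in DMSO replicate 3, and in Molm-14 it was 1.29 (0.459 to 3.76). These intervals cover counting error only and not the spread between samples. With no filter on low values limma did not call CD274 in any line (adjusted p = 0.36 in MV4-11 and 0.29 in SKNO-1). PDCD1LG2 had 1 to 9 reads in every library, its groups overlapped in all 3 lines, and its ratios were 0.826 (0.353 to 1.89) in Molm-14, 1.88 (0.709 to 5.50) in MV4-11 and 0.864 (0.378 to 1.95) in SKNO-1. A change of this gene was not detectable at this depth.

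The promoter of CD274 is shown because PD-L1 is a known interferon-induced gene and because it was the 1 member promoter with a match to any of the motifs searched. The 250 bases before the RefSeq start (GRCh38.p14, chr9:5450292-5450541, plus strand) are printed with the matches in capitals. The motifs, searched on both strands and chosen after the values were seen, were GAAA, any 2 bases and GAAA again (written here as ISRE-like, for the interferon-stimulated response element), TTCNNNGAA (GAS-like, for the gamma-activated site) and TGANTCA (the AP-1 site).
CD274: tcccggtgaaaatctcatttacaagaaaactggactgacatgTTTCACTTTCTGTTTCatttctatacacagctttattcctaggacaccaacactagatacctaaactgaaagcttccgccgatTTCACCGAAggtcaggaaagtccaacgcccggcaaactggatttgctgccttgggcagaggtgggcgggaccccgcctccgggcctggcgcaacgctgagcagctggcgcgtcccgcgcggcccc
The first capital run holds 2 overlapping ISRE-like matches on the opposite strand, at 208 to 199 and 202 to 193 bases upstream, and the second run is a GAS-like match at 125 to 117 bases upstream. Of 35116 promoters of the same length, 3.02% held the ISRE-like letters, 6.57% the GAS-like letters and 6.57% the AP-1 letters. RefSeq entries were matched for 7 of the 10 members. A match is a description of the letters and not a measured binding site.

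Most of the 12 fixed interferon-response genes rose with the drug. They are given beside CD274, a known interferon-induced gene that was too low to test here. The number called higher was 10 of 11 tested in Molm-14, 12 of 12 in MV4-11 and 11 of 12 in SKNO-1, with 0 lower in each, also at an unadjusted p under 0.05 in limma. Over all genes tested 21.5%, 5.85% and 10.8% were called higher. The median log2 changes of the list were 2.02, 3.33 and 2.04, beside all-gene medians of -0.058, -0.010 and -0.047. Without the 4 high-mitochondrial libraries the counts were 10 of 10, 9 of 9 and 12 of 12 tested. Their summed level had a median of 303 CPM with DMSO and 540.4 CPM with RMC-4550 in Molm-14, 377 and 1039 CPM in MV4-11, and 436 and 801 CPM in SKNO-1. IFIT3, an antiviral effector, rose from 3.13 to 15.3 CPM in Molm-14, from 1.20 to 36.8 CPM in MV4-11 and from 2.41 to 15.5 CPM in SKNO-1. Their part in the results on the members was not tested.

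Among 12 fixed partners and regulators of the PD-1 ligands, 11 were tested in each line. In Molm-14, 2 rose and 3 fell, and in MV4-11, 1 rose and 1 fell. In SKNO-1, 4 fell and 0 were called higher by limma, with 2 higher at an unadjusted p under 0.05. The background over all genes was 46.7%, 13.9% and 27.1% called, in the same order, and the counts of 5, 2 and 4 out of 11 lie near it. The median log2 changes were -0.086, 0.00050 and 0.0014, beside all-gene medians of -0.058, -0.010 and -0.047. CMTM6, which keeps PD-L1 on the cell surface, fell in each line, from 123 to 103 CPM in Molm-14, from 91.9 to 69.3 CPM in MV4-11 and from 56.7 to 47.9 CPM in SKNO-1. Its call in SKNO-1 was lost without any 1 of the 6 SKNO-1 libraries or any 1 of the 3 untreated Molm-14 libraries, and its call in Molm-14 without DMSO replicate 1 or 3 or RMC-4550 replicate 3. Its call in MV4-11 was lost in a separate fit per line (limma adjusted p = 0.14).

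IRF2, a repressor of interferon-induced genes, fell from 38.7 to 26.1 CPM in Molm-14 and from 32.0 to 26.1 CPM in SKNO-1, the second with a call lost with no filter on low values (limma adjusted p = 0.054). SPPL2A, a protease that cleaves PD-L1, rose from 50.4 to 67.0 CPM in Molm-14. IFNGR1, a chain of the interferon-gamma receptor, fell from 85.8 to 74.0 CPM in Molm-14 and from 55.2 to 45.4 CPM in SKNO-1, with calls lost without any of 5 Molm-14 libraries (all but RMC-4550 replicate 2) and any of 4 SKNO-1 libraries (DMSO replicates 1 and 3, RMC-4550 replicates 2 and 3). IFNGR2, the other chain, rose from 87.7 to 107 CPM in Molm-14 and was at 72.8 and 62.6 CPM in SKNO-1, a call of lower (limma adjusted p = 0.031) that was lost under 8 of 28 alternatives, among them 5 that leave out 1 SKNO-1 library. Without the 4 high-mitochondrial libraries the list counted 3 higher and 4 lower in Molm-14, 2 and 2 in MV4-11, and 4 and 4 in SKNO-1.

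CD80 (ENSG00000121594, chr3:119524293-119559602, minus strand) and CD86 (ENSG00000114013, chr3:122055366-122121139, plus strand) share their receptors and were expressed at very different levels. CD80 had 1, 2 and 1 reads in Molm-14 with DMSO and 0, 1 and 2 with RMC-4550, and 2, 0 and 0 against 0, 2 and 3 in MV4-11. In SKNO-1 it had 5, 2 and 1 reads against 19, 14 and 12. The SKNO-1 groups did not overlap, as was so for 62.0% of the genes tested in that line, and those of the other lines did. As a description added after the values were seen, the ratio of summed reads in SKNO-1 was 5.61 (exact 95% interval 2.62 to 13.8, counting error only). CD80 stayed under 1 CPM in every library and was not tested, and with no filter on low values limma did not call it there (adjusted p = 0.08).

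CD86, the more abundant of the pair, was higher in every treated library than in any untreated one. Its 3 libraries with DMSO were at 7.45, 6.17 and 7.85 CPM in Molm-14 and those with RMC-4550 at 21.2, 25.1 and 23.3 CPM. In MV4-11 they were at 6.51, 7.62 and 6.64 CPM against 19.3, 17.7 and 15.1 CPM, and in SKNO-1 at 7.66, 7.76 and 8.80 CPM against 21.5, 19.1 and 19.1 CPM. The lowest treated library of any line was at 15.1 CPM and the highest untreated one at 8.80 CPM. Within a line, 60.0% of tested genes did not overlap in either direction for Molm-14, 24.6% for MV4-11 and 62.0% for SKNO-1. CD86 rose 3.24-fold in Molm-14 (log2 change 1.70, SE 0.13, limma adjusted p = 5.6e-08), 2.50-fold in MV4-11 (1.32, SE 0.13, adjusted p = 3.6e-06) and 2.46-fold in SKNO-1 (1.30, SE 0.13, adjusted p = 1.4e-06). The difference in response was 0.38 (95% interval 0.0017 to 0.75, adjusted p = 0.13) for Molm-14 against MV4-11, -0.40 (-0.77 to -0.023, adjusted p = 0.17) for SKNO-1 against Molm-14 and -0.021 (-0.40 to 0.36, adjusted p = 0.97) for SKNO-1 against MV4-11. None was called, in comparisons where 19.5%, 10.9% and 1.66% of genes were. Without drug no difference in CD86 between lines was called, with log2 differences from 0.044 to 0.22. Scaled by read totals alone, CD86 was higher in SKNO-1 than in Molm-14 by 0.42 (adjusted p = 0.0069) and than in MV4-11 by 0.37 (adjusted p = 0.024).

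**Figure D3:**
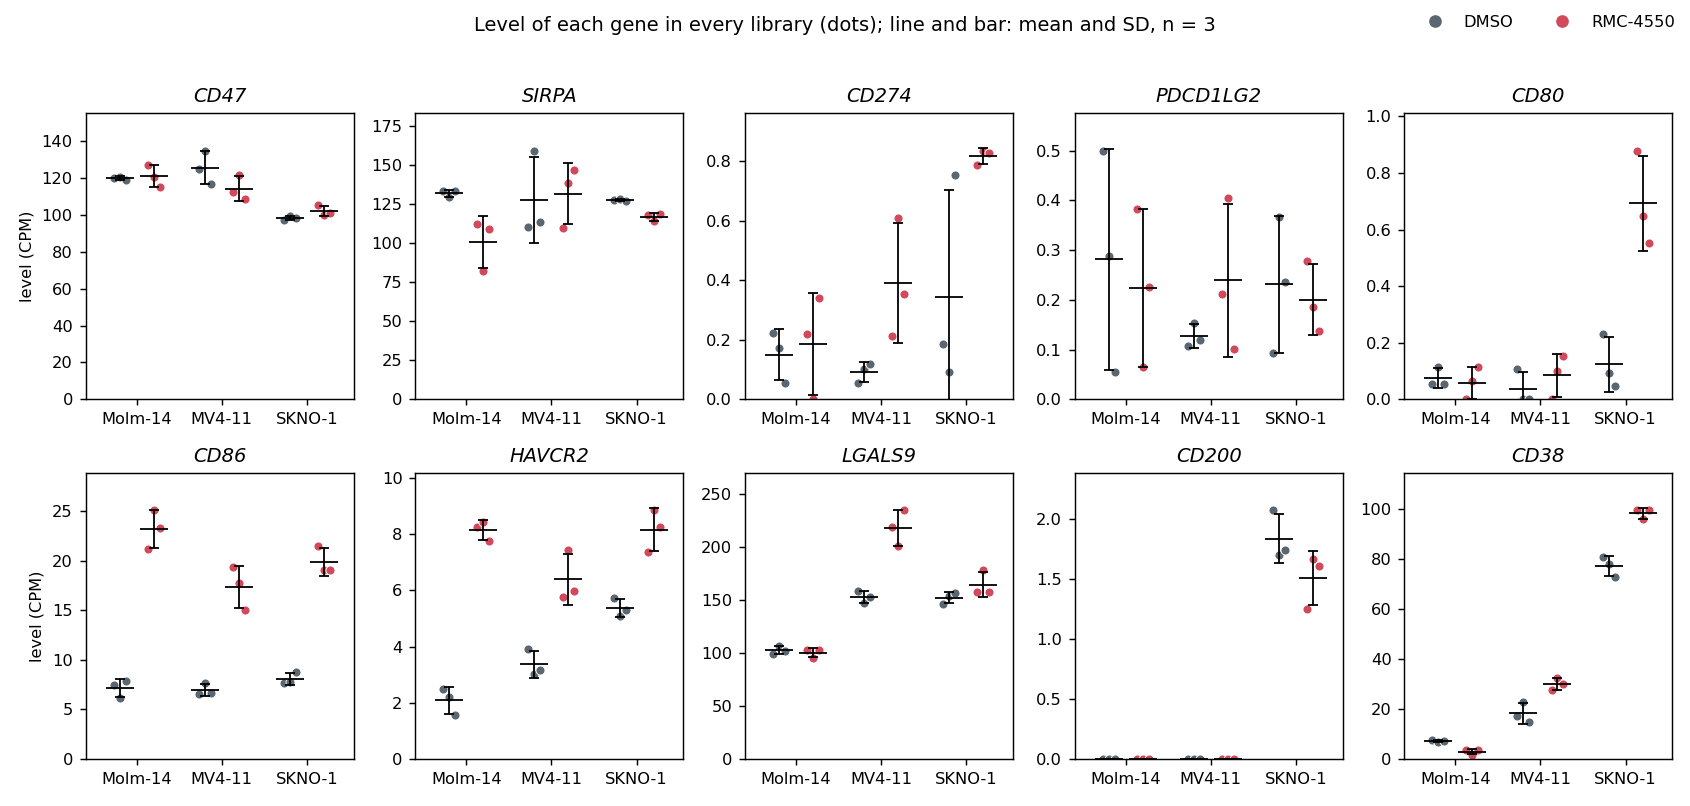
CPM of each member in every library, 1 panel per member, with the 3 libraries of each group as points, the group mean as a line and the SD as a bar. The CD86 panel shows all treated libraries above all untreated ones, and the CD38 panel shows lower treated values in Molm-14 beside higher ones in MV4-11.

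The promoters of CD86 are shown because it was called higher in all 3 lines. RefSeq gives 2 entries, and the 250 bases before each start (GRCh38.p14, plus strand, chr3:122055112-122055361 for the first and chr3:122077534-122077783 for the second) hold none of the 3 motif strings, so no base is in capitals.
CD86 first start: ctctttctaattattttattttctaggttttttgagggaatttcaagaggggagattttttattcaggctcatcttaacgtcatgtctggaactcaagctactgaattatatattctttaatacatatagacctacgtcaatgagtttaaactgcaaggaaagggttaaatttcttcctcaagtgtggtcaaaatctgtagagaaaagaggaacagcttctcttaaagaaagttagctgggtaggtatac
CD86 second start: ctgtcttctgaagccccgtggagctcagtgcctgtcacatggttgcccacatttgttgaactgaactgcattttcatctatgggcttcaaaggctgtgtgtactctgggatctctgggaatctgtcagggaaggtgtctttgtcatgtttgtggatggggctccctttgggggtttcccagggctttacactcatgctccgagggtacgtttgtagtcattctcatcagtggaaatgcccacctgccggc
The values per gene do not say from which start the reads came. The absence of a match says only that these letters are not in these windows.

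HAVCR2 (ENSG00000135077, chr5:157085832-157142869, minus strand), which encodes the receptor TIM-3, rose in all 3 lines from starting levels that differed between them. In Molm-14 the libraries were at 2.50, 2.19 and 1.56 CPM with DMSO and at 8.25, 8.46 and 7.75 CPM with RMC-4550. In MV4-11 they were at 3.93, 3.02 and 3.17 CPM against 5.76, 7.44 and 5.99 CPM, and in SKNO-1 at 5.72, 5.09 and 5.32 CPM against 7.36, 8.86 and 8.28 CPM. Treated and untreated libraries did not overlap in any line, as was so for 60.0%, 24.6% and 62.0% of tested genes in the same order. The treated means were 8.15, 6.40 and 8.16 CPM. The log2 changes were 1.98 (SE 0.17, limma adjusted p = 2.6e-07), 0.92 (SE 0.17, adjusted p = 0.0017) and 0.60 (SE 0.17, adjusted p = 0.016), or 3.94-fold, 1.89-fold and 1.51-fold. The SKNO-1 call was lost without DMSO replicate 2 or RMC-4550 replicate 2 or 3, with changes of 0.56, 0.54 and 0.59.

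The response of HAVCR2 was larger in Molm-14 than in MV4-11 by 1.06 on the log2 scale (SE 0.24, limma adjusted p = 0.0079), and by 0.81 and not called without the high-mitochondrial libraries (adjusted p = 0.076). It was smaller in SKNO-1 than in Molm-14, with a difference of -1.38 (SE 0.24, adjusted p = 0.0016). SKNO-1 and MV4-11 differed by -0.32 (95% interval -0.83 to 0.19), which was not called. Without drug the order was Molm-14 under MV4-11 under SKNO-1, each step being called: Molm-14 was lower than MV4-11 by 0.70 (SE 0.17, adjusted p = 0.0027), and SKNO-1 was higher than MV4-11 by 0.68 (SE 0.17, adjusted p = 0.005) and than Molm-14 by 1.38 (adjusted p = 2.4e-06). Without the high-mitochondrial libraries the first of these was -0.55 and not called (adjusted p = 0.055).

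LGALS9 (ENSG00000168961, chr17:27629798-27649560, plus strand) encodes galectin-9, a ligand of TIM-3. Its libraries were at 99.2, 107 and 102 CPM in Molm-14 with DMSO and at 103, 95.1 and 103 CPM with RMC-4550, with overlap. In MV4-11 they were at 158, 147 and 152 CPM against 219, 200.4 and 235 CPM, and all treated libraries were higher. In SKNO-1 they were at 146, 154 and 157 CPM against 157.2, 178 and 157.6 CPM, a separation of under 1 CPM between the nearest libraries. Over all tested genes the groups did not overlap for 24.6% in MV4-11 and 62.0% in SKNO-1. LGALS9 rose in MV4-11 by 0.51 on the log2 scale (SE 0.077, limma adjusted p = 0.00027), and the change was -0.036 (95% interval -0.20 to 0.13) in Molm-14 and 0.11 (-0.055 to 0.27) in SKNO-1, neither called. The Molm-14 change had the opposite sign under median-ratio scaling, at 0.011.

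The response of LGALS9 in Molm-14 was lower than in MV4-11 by 0.55 (SE 0.11, limma adjusted p = 0.0035). For SKNO-1 against MV4-11 the difference was -0.41 and not called (limma adjusted p = 0.077). It was -0.45 without the high-mitochondrial libraries, where 1 untreated MV4-11 library was left. The difference was called, at the same -0.41, without Molm-14 RMC-4550 replicate 2 alone (limma adjusted p = 0.044). With DMSO, LGALS9 was lower in Molm-14 than in MV4-11 by 0.57 (SE 0.077, adjusted p = 1.4e-05), and SKNO-1 and MV4-11 differed by -0.0023 (95% interval -0.17 to 0.16). LGALS9C, a near-identical copy of the gene, rose in MV4-11 from 3.09 to 7.52 CPM (log2 change 1.30, SE 0.22, limma adjusted p = 0.00096), and in SKNO-1 from 5.82 to 18.1 CPM (1.63, SE 0.22, adjusted p = 5.3e-05). It was looked at after the values of LGALS9 were seen. How reads shared by the copies were assigned is not given in the sources used here, so the separate values of LGALS9 and LGALS9C are uncertain. In MV4-11, the line where LGALS9 rose, the treated interferon-response genes summed to 1032 to 1063 CPM per library, and their part in this was not tested.

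Of 24 other checkpoint and costimulatory genes on a fixed list, 23 were in the table. In Molm-14, 14 were tested, of which 5 rose and 3 fell, in MV4-11 14 with 2 higher and 1 lower, and in SKNO-1 15 with 3 higher and 3 lower. These counts stand beside 46.7%, 13.9% and 27.1% of all tested genes called in the 3 lines. The median log2 changes were 0.24, -0.053 and -0.0053, beside all-gene medians of -0.058, -0.010 and -0.047. VSIR, which encodes the inhibitory ligand and receptor VISTA, rose in every line, from 78.8 to 235 CPM in Molm-14, from 124 to 232 CPM in MV4-11 and from 171 to 239 CPM in SKNO-1. The SKNO-1 call of VSIR was lost without DMSO replicate 1 or 2 or RMC-4550 replicate 2 or 3. LILRB4, an inhibitory receptor of monocytic leukaemia cells, also rose in every line, from 70.2 to 103 CPM, from 216 to 346 CPM and from 275 to 476 CPM in the same order.

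HMGB1, a nuclear protein that is also a ligand of TIM-3, fell in every line, from 521 to 296 CPM in Molm-14, from 411 to 250.3 CPM in MV4-11 and from 252 to 155 CPM in SKNO-1. The nectin family ligands of TIGIT fell in part of the lines: PVR from 20.1 to 9.11 CPM in Molm-14, and NECTIN2 from 74.3 to 45.1 CPM in Molm-14 and from 89.0 to 69.6 CPM in SKNO-1. The SKNO-1 call of NECTIN2 was lost without RMC-4550 replicate 1. CD276, which encodes B7-H3, fell from 29.02 to 10.4 CPM in SKNO-1 (log2 change -1.48, SE 0.52, limma adjusted p = 0.043), a call that was lost under 13 of the alternatives, among them the omission of any 1 SKNO-1 library. Without the 4 high-mitochondrial libraries the list counted 4 higher and 3 lower in Molm-14, 4 and 1 in MV4-11, and 5 and 5 in SKNO-1.

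**Figure D4:**
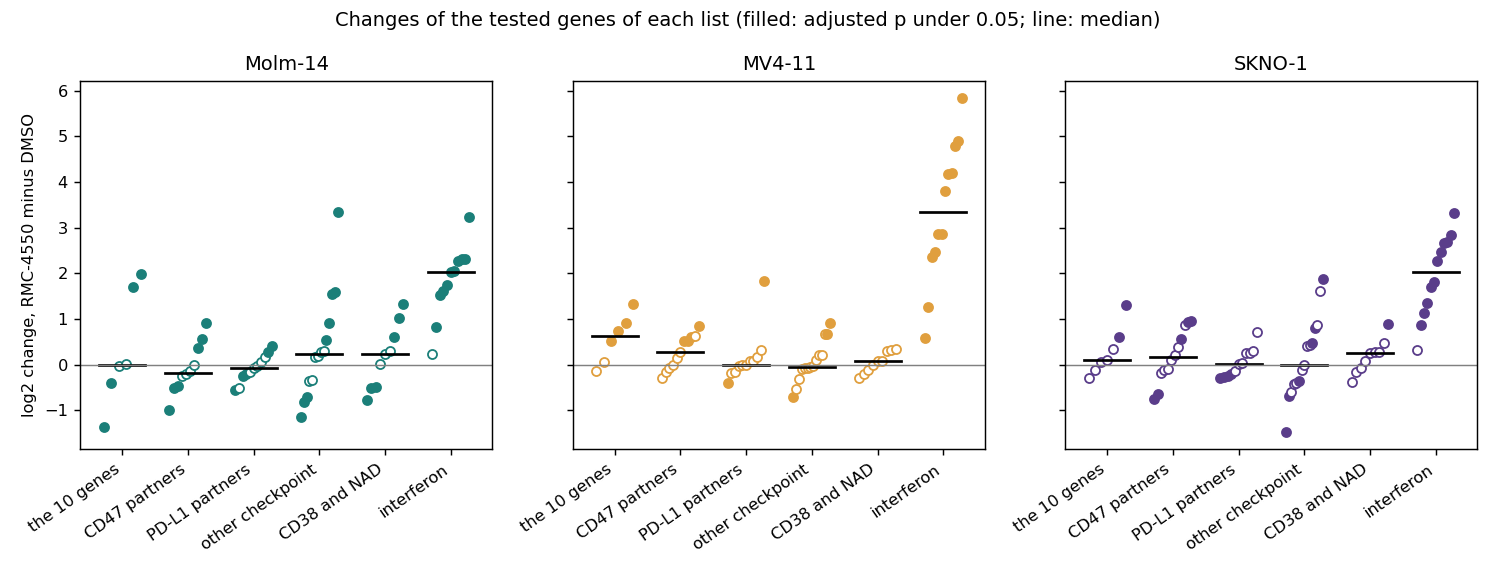
Log2 change with RMC-4550 against DMSO of each tested gene of the 10 members and of each fixed list, 1 panel per line, with 1 point per gene, filled where the adjusted p was under 0.05, and a black line at the median of each list. The interferon-response list has 10, 12 and 11 filled points above 0 and 0 below, and the lists around the members have filled points on both sides of 0 in Molm-14.

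CD200 (ENSG00000091972, chr3:112332347-112362812, plus strand), the ligand of an inhibitory receptor on myeloid cells, was seen in SKNO-1 libraries alone. It had 45, 37 and 37 reads in SKNO-1 with DMSO and 27, 36 and 35 reads with RMC-4550. No read was counted in any of the 12 libraries of Molm-14 and MV4-11. Set against a floor of 3 reads per library, the untreated SKNO-1 mean of 1.84 ± 0.207 CPM (SD, n = 3) was at least 10.6-fold higher than in Molm-14 and at least 10.2-fold higher than in MV4-11. All 3 treated SKNO-1 libraries lay below the untreated ones, in a line where 62.0% of tested genes did not overlap. The change was -0.29 (95% interval -1.08 to 0.51, limma adjusted p = 0.62), not called. Its receptor gene CD200R1 was under 0.3 CPM on average in every group and was not tested.

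CD38 (ENSG00000004468, chr4:15778275-15853230, plus strand) was the member that moved in opposite directions. In Molm-14 the libraries were at 7.67, 6.57 and 7.30 CPM with DMSO and at 3.50, 1.67 and 3.51 CPM with RMC-4550. In MV4-11 they were at 17.3, 22.7 and 14.6 CPM against 27.4, 32.5 and 30.1 CPM, and in SKNO-1 at 80.7, 77.8 and 72.8 CPM against 99.5, 95.8 and 99.4 CPM. No treated library overlapped the untreated ones in any line: all treated ones were lower in Molm-14 and higher in the other two. CD38 fell by 1.38 on the log2 scale in Molm-14 (SE 0.22, limma adjusted p = 0.0001), or 2.601-fold, and by 1.03 without replicate 2, which was called as well. It rose by 0.74 in MV4-11 (SE 0.22, adjusted p = 0.033), or 1.67-fold. The SKNO-1 change of 0.35 (95% interval -0.11 to 0.81) was not called (adjusted p = 0.26). In a separate fit of the SKNO-1 libraries it was called at the same value (limma adjusted p = 6.8e-05). That fit called 8451 genes, against 3969 in the fit of all lines.

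The MV4-11 call of CD38 did not hold in several settings. It was lost without DMSO replicate 1 (0.72, limma adjusted p = 0.092) or 3 (0.60, adjusted p = 0.14) and without RMC-4550 replicate 2 (0.68, adjusted p = 0.11) or 3 (0.74, adjusted p = 0.097). Within the MV4-11 libraries at 10% mitochondrial reads or under, the change was 0.46 from 1 untreated and 2 treated libraries, and within those over 10% it was 0.79 from 2 and 1. The SKNO-1 change, at the same value of 0.35, was called without the high-mitochondrial libraries (adjusted p = 0.00048) and without Molm-14 RMC-4550 replicate 2 alone (adjusted p = 0.042).

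The responses of CD38 differed between the lines themselves. That of Molm-14 was below that of MV4-11 by 2.12 on the log2 scale (95% interval of the difference -2.77 to -1.47, limma adjusted p = 0.00037), and that of SKNO-1 was above that of Molm-14 by 1.73 (1.08 to 2.38, adjusted p = 0.0018). SKNO-1 and MV4-11 differed by -0.39 (-1.04 to 0.26, adjusted p = 0.63), which was not called. A call lower in Molm-14 together with calls higher in both other lines was found for 0.125% of the 12792 genes tested in every line, and CD38 is not among them because its SKNO-1 change was not called. Without drug CD38 was 10.7-fold higher in SKNO-1 than in Molm-14 (log2 difference 3.42, SE 0.22, adjusted p = 7.2e-10) and 4.30-fold higher than in MV4-11 (2.10, SE 0.22, adjusted p = 1.2e-06). It was 2.49-fold lower in Molm-14 than in MV4-11 (-1.32, SE 0.22, adjusted p = 0.00011), so all 3 lines were apart.

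The CD38 promoter is shown because the response of the gene differed between lines. In the 250 bases before its RefSeq start (GRCh38.p14, chr4:15778078-15778327, plus strand) none of the 3 motif strings occurred.
CD38: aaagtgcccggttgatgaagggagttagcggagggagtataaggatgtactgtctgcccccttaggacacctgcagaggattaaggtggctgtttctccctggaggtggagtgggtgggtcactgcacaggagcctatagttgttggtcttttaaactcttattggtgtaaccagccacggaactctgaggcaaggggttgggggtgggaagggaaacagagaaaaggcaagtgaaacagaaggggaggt

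The fixed list around CD38 held 12 genes, mainly of NAD and adenosine metabolism. Among the 12 was RARA, a retinoic acid receptor that is a known inducer of CD38. Of 9 tested in each line, 3 rose and 3 fell in Molm-14. In MV4-11 limma called 0 in either direction, with 1 higher and 0 lower at an unadjusted p under 0.05, and in SKNO-1 1 rose and 0 fell, with 4 higher and 0 lower at an unadjusted p under 0.05. Among all tested genes the share called was 46.7%, 13.9% and 27.1% in the 3 lines. The median log2 changes were 0.22, 0.070 and 0.25, beside all-gene medians of -0.058, -0.010 and -0.047. RARA rose in Molm-14 from 57.5 to 144 CPM (log2 change 1.32, SE 0.11, limma adjusted p = 1.5e-07). Its values were 147 and 183 CPM in MV4-11 and 176 and 213 CPM in SKNO-1, neither called. Any part of RARA in the CD38 changes was not tested. NAMPT, which makes NAD precursors, fell from 92.2 to 55.7 CPM in Molm-14, BST1, a relative and neighbour of CD38, from 5.55 to 3.87 CPM, and ENTPD1, the ectoenzyme CD39, from 23.6 to 17.0 CPM.

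The call of ENTPD1 was lost without RMC-4550 replicate 3 (-0.33) and in a separate fit per line. NMNAT1, an enzyme of NAD synthesis in the nucleus, rose from 8.19 to 12.4 CPM. Without the 4 high-mitochondrial libraries the list counted 5 higher and 3 lower in Molm-14, 1 and 2 in MV4-11, and 4 and 1 in SKNO-1.

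The genes whose pattern over the 18 samples was most like that of each member are given as a description, since the samples share 3 lines and a treatment and genes were ranked over 16262. For CD38 they were F2R (Pearson r = 0.992) and CSF2RB (0.990), a receptor chain for GM-CSF. After each line was centred on its own mean they were SNAPC3 (0.969) and HS3ST3B1 (0.959). For CD86 they were FYB1 (0.963) and H2AC6 (0.961), and after centring H2AC6 (0.982) and NAPSB (0.978). HAVCR2 was most like TTC21A and OSER1-DT on both scales, with r of 0.956 and 0.947 before centring and 0.974 and 0.972 after it. LGALS9 was most like RNF213-AS1 (0.949) and PLAC8 (0.938) before centring, and like PML (0.931), an interferon-induced gene, and PIM1 (0.868) after it. For SIRPA they were UBP1 (0.952) and IRF8 (0.932), and after centring XPR1 (0.986) and PDZD8 (0.986), and for CD47 COL6A3 (0.922) and KRR1P1 (0.913), and after centring KRBOX5 (0.771) and ZBTB37 (0.768).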

How the data were processed

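RNA-seq values of 18 samples (3 lines, 2 treatments, 3 replicates) were taken from 1 table of 40184 gene IDs. The authors deposited log2 values. From the values, each is the log2 of CPM, with 0.5 added to the reads, over an effective library, the read total times a scaling factor between 0.890 and 1.11. Undoing this gave whole reads for 100% of values up to 1000 reads, within 0.05 of a read. The submitters' processing notes name FastQC, STAR, limma and GRCh38, with no role or order. The counter, the annotation and the strand setting are not given in the sources used here. Symbols were matched for 40069 IDs. Gene positions and exon lengths came from GENCODE 29.

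Tests used limma 3.58.1 in R 4.3.3 (two-sided, trended variance) on the log2 values, in 1 fit over 18 samples with 1 coefficient per group. The fit took the 16262 genes that reached 1 CPM in 3 or more samples, and a line's test took those that did so within that line. Differences between lines were interaction contrasts. The p-values were adjusted by Benjamini-Hochberg over all genes tested in a contrast and called under 0.05. The fit was run on simulated reads with a single spread shared by all genes and libraries. Those reads lack the uneven differences between libraries seen here, so the run cannot show how the fit handles them. Plots used matplotlib 3.10.9 (Python 3.11.15).

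The members and lists were chosen with earlier results of these data known. All members are named. From each list up to 3 called genes per direction and line were named by size of change, with a group mean of at least 5 CPM, as were the 2 genes most like each member. A few other genes of direct relation to a member (QPCTL, CD200R1, LGALS9C) were named outside that rule after their values were seen. One gene that the rule names is not reported here. For some genes named in one line, values in other lines were added in the same way. Alternatives were other filters, pseudocounts and scalings, a separate fit per line, a replicate block, the mitochondrial share as a covariate, and leaving out libraries. Counting intervals are exact at 95%. Reads without molecular identifiers are not independent molecules, so intervals and floors cover counting error only.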

Additional observations from a re-analysis of the deposited data

Results flagged for a closer look

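Tests of the difference between lines singled out 5 responses. They were 3 of 6 tested members for Molm-14 against MV4-11, where 19.5% of 13458 genes were called. For SKNO-1 against Molm-14 they were 2 of 6, where 10.9% of 12882 genes were called. For CD38 the log2 change in Molm-14 was below that in MV4-11 by a difference of -2.12, and the change in SKNO-1 was above that in Molm-14 by 1.73. For HAVCR2 the change in Molm-14 was above that in MV4-11 by 1.06, and the SKNO-1 change stood at -1.38 against that of Molm-14. The first of these was 0.81 without the high-mitochondrial libraries, which left 1 untreated MV4-11 library. For LGALS9 the change in Molm-14 stood at -0.55 against that of MV4-11. A test for an outlying value within a group was not run, since each group had 3 samples.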

How the results depend on the processing

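The limits of these results are 3 samples a group, the 4 libraries over 10% mitochondrial reads, and read counts too low for CD274, PDCD1LG2, CD80 and, outside SKNO-1, CD200. Every called change of CD86 and the called changes of HAVCR2 and CD38 in Molm-14, HAVCR2 and LGALS9 in MV4-11 kept their direction and call under all alternatives. In SKNO-1 the members called numbered 4 in a separate fit per line and without the high-mitochondrial libraries, and 1 to 3 with 1 library left out. The members whose response differed between SKNO-1 and MV4-11 numbered 0 to 1 with 1 library left out and 1 under the mitochondrial covariate. Over all genes the covariate took the number called in that comparison from 230 to 1288. The causes were not tested. The SIRPA call in Molm-14 was lost with no filter (adjusted p = 0.059) and in a separate fit (0.052), and that of CD38 in MV4-11 with no filter (0.057) and in a separate fit (0.07). CD47 in MV4-11 was -0.17 and called with the mitochondrial covariate (limma adjusted p = 0.029).

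Signs turned only for values that were not called, except SIRPA in the level comparisons below. With median-ratio scaling the change of LGALS9 in Molm-14 was 0.011, the CD86 difference in response of SKNO-1 against MV4-11 was 0.0021, and the levels of SKNO-1 were 0.0019 against Molm-14 for SIRPA and 0.046 against MV4-11 for LGALS9. With scaling by read totals the levels were -0.029 (SIRPA) and -0.053 (CD86) for Molm-14 against MV4-11, 0.20 for SIRPA in SKNO-1 against Molm-14 and 0.15 for LGALS9 in SKNO-1 against MV4-11. With the mitochondrial covariate, SIRPA gave -0.13 for its change in MV4-11, 0.022 for the SKNO-1 response against that of MV4-11, and levels of -0.23 for Molm-14 and -0.30 for SKNO-1 against MV4-11, both levels called. Without the high-mitochondrial libraries LGALS9 changed by 0.0011 in Molm-14, SIRPA by -0.16 in MV4-11, and the responses of SKNO-1 against MV4-11 differed by 0.031 (SIRPA) and 0.20 (CD86). The levels there were -0.27 (SIRPA) and -0.097 (CD86) for Molm-14 and -0.32 (SIRPA) and 0.050 (LGALS9) for SKNO-1. Each was set against the 1 untreated MV4-11 library left.

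With 1 library left out the sign turned within these ranges: -0.025 to 0.048 for the change of CD47 and -0.060 to 0.0011 for LGALS9 in Molm-14, -0.040 to 0.22 for SIRPA in MV4-11, and -0.12 to 0.060 for the CD86 response of SKNO-1 against MV4-11. For levels with DMSO they were -0.026 to 0.24 (SIRPA) and -0.027 to 0.15 (CD86) for Molm-14 against MV4-11, and -0.072 to 0.19 (SIRPA) and -0.028 to 0.027 (LGALS9) for SKNO-1 against MV4-11.

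No clear pairing by replicate number was seen: same-numbered libraries correlated between -0.399 and 0.591 in their deviations, and 3 of 9 correlated best with their own number. The high-mitochondrial libraries enter these deviations unevenly, so this check cannot exclude a pairing. With the replicate block, 4, 3 and 2 members were called in the order Molm-14, MV4-11, SKNO-1, the change being CD38 in MV4-11 (0.74, limma adjusted p = 0.053). Over all genes, the number called in MV4-11 was 2045 in the report and 674 in a separate fit, 5054 with the mitochondrial covariate and 3897 without the high-mitochondrial libraries. In SKNO-1 it was 3969, and 8451, 7270 and 7818 in the same settings.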
